A study of Homo sapiens with 26 samples.

Results

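The HOX cluster genes are the 39 genes in the count tables whose symbol is HOX followed by the cluster letter A, B, C or D and a number, out of 26485 genes in all. They comprise 11 HOXA genes on chromosome 7 (27092993 to 27200091, minus strand, GRCh38), 10 HOXB genes on chromosome 17 (48528526 to 48728750, minus strand), 9 HOXC genes on chromosome 12 (53938831 to 54056030, plus strand) and 9 HOXD genes on chromosome 2 (176087487 to 176190907, plus strand). No expression value was used to choose them. RNA had been sequenced from KELLY, a human neuroblastoma cell line in which MYCN is amplified, in a study of RUNX1T1, a transcriptional co-repressor. The cells had received a lentivirus that doxycycline switches on, either empty (EV, labelled F1HUTG) or with a hairpin RNA, sh4 or shAMB, and each of these 3 lines was grown for 72 h with DMSO or doxycycline, with 3 libraries per group and 18 in all. The hairpins are directed against RUNX1T1 per the methods of the study, although the genotype label of both lines reads RUNX1T5. Another 8 libraries came from KELLY tumours grown in mice, of which 4 are labelled control (genotype WT, control food) and 4 RUNX1T1 KO (doxycycline food). Per the methods of the study, the hosts were NSG mice, an immunodeficient strain, and the tumours carried an inducible hairpin of the Ambion-based design rather than a knock-out, so the group is called here the xenografts labelled KO. The culture columns carry the words Neg and Pos, taken here to mean DMSO and doxycycline with nothing else to go by, and every direction in culture rests on that reading.

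HOX genes encode homeodomain transcription factors that give cells along the body axis their positional identity. Genes at the 3′ end of a cluster (low numbers) are switched on early and in anterior tissue, and genes at the 5′ end (high numbers) late and in posterior tissue and limbs. Polycomb complexes keep the clusters silent, trithorax complexes and retinoic acid open them, and HOX proteins bind DNA together with PBX and MEIS cofactors of the TALE family. In sympathetic neuroblastoma, which derives from trunk neural crest, HOXC9 and HOXD genes are known for rising when cells are made to differentiate with retinoic acid.

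Total expected counts ranged from 35115915 to 54736733 in culture and from 47346063 to 62378060 in the xenografts. RUNX1T1 ranged from 30.1 to 44.1 CPM in culture, and doxycycline against DMSO gave log2 fold changes of -0.16 in EV, -0.11 in sh4 and 0.06 in shAMB (adjusted p = 0.672, 0.118 and 0.378), and labelled KO against control xenografts gave -0.23 (adjusted p = 0.229). No fall of the targeted gene with doxycycline or in the xenografts labelled KO thus passed the threshold, and its RNA level does not check the labels. The shAMB effect on RUNX1T1 lay above that in EV by 0.21 (adjusted p = 0.0353), and with DMSO RUNX1T1 was already lower in sh4 than in EV by a log2 fold change of -0.29 (adjusted p = 0.0144). CPM are counts scaled to the library size with TMM factors, adjusted p-values come, unless another test is named, from the edgeR quasi-likelihood F test with the Benjamini-Hochberg method applied to the whole table, and a gene with an adjusted p under 0.05 is called changed. Values under another setting are given where it changes a call, among them the removal of each library's trends with GC content and gene length, which was added after the data were seen. The lineage markers of KELLY cells were present in all 26 libraries: the 9 sympathetic neuroblastoma markers summed to between 3322 and 9253 CPM, and the haemoglobin genes HBA1 and HBB were listed at 0 throughout. This sum was higher with doxycycline in sh4 (4673 to 5880 CPM, against 3325 to 3818 with DMSO) and shAMB (7291 to 7978, against 3322 to 3401) and in the xenografts labelled KO (6936 to 9253, against 3441 to 4182); its part in the HOX results was not tested. Of 6 blood markers 5 were under 0.1 CPM in every group, and 5 endothelial markers summed to 2.16 to 7.94 CPM in culture and 8.69 to 15.7 in the xenografts. Control xenograft replicate 4 stood apart: 20997 genes had at least 1 count in it, against 18261 to 18490 in the other control xenografts and 19611 to 19799 in those labelled KO, and results that rest on it are given with and without it. The labels do not say whether replicates were separate cultures or animals, so p-values measure the spread between these libraries, which may be technical. In bulk RNA, fewer cells that express a gene and less RNA per cell cannot be told apart. How reads from mouse cells were treated is not given in the sources used here.

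KELLY cells transcribed the HOXC and HOXD clusters and almost nothing of HOXA and HOXB. In culture, no HOXA or HOXB gene exceeded 7 counts in any of the 18 libraries, and 12 of the 21 had no count at all. The same 14 genes passed the filter on low counts in culture and in the xenografts, namely HOXC4, HOXC5, HOXC6, HOXC8, HOXC9, HOXC10, HOXD1, HOXD3, HOXD4, HOXD8, HOXD9, HOXD10, HOXD11 and HOXD13. Of the 25 genes below the filter, HOXA3, HOXA6, HOXB1 and HOXC12 had 0 counts in all 26 libraries. A count of 0 allows a level of up to 0.0481 to 0.0854 CPM, depending on the depth of the library. These limits cover counting error only.

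**Figure D1:**
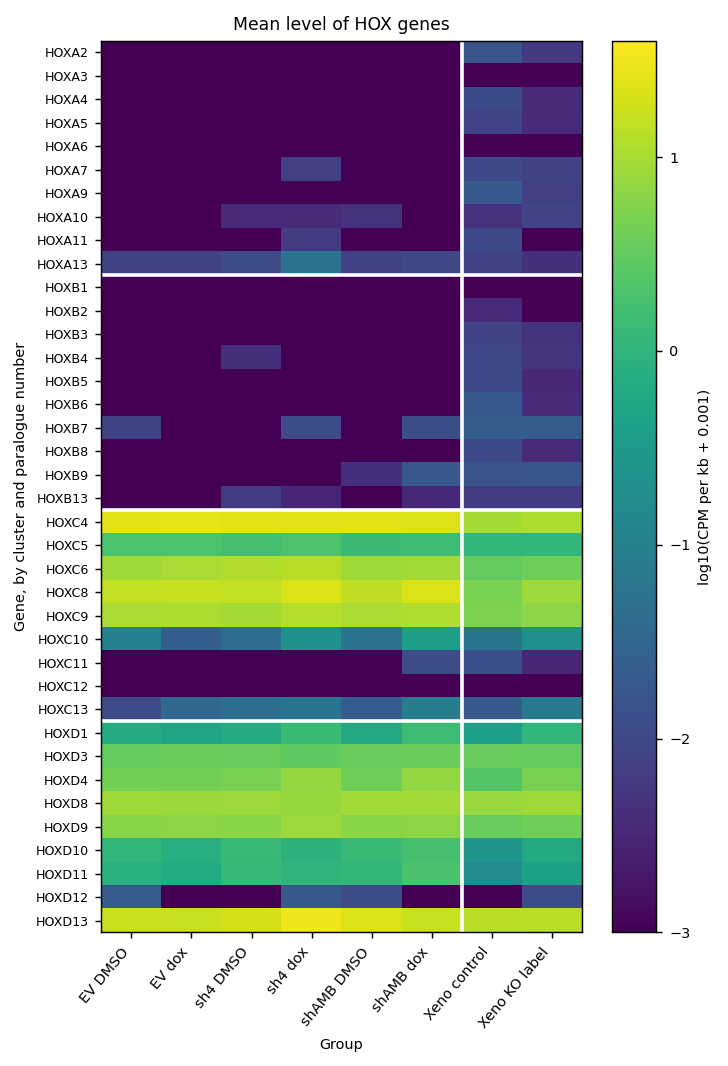
Mean level of HOX genes (rows, by cluster and paralogue number) in the 8 groups (columns), as log10 of CPM per kb plus 0.001. HOXA and HOXB rows stay dark, while HOXC4 to HOXC9 and most HOXD genes are bright in every group. The white vertical line separates the culture and xenograft tables, which were scaled separately.

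HOXA13, the most 5′ HOXA gene and a regulator of limb and urogenital patterning, was the HOXA gene with the highest mean level per length. Its counts were 2, 1 and 1 in sh4 with DMSO and 7, 7 and 5 with doxycycline. EV libraries held 1, 0 and 1 with DMSO and 1, 1 and 0 with doxycycline. Libraries of shAMB held 0, 1 and 1 with DMSO and 1, 1 and 1 with doxycycline. Doxycycline libraries of sh4 thus held more HOXA13 counts than any other culture library, though at most 7 each. When the filter on low counts was left out, the log2 fold change of HOXA13 was 2.21 in sh4 (adjusted p = 0.0101, edgeR) and 0.19 in shAMB (adjusted p = 0.941). HOXA7 and HOXA9, trunk-level genes also known from leukaemia, came next. HOXA7 was at 0 in culture apart from 2 counts in sh4 doxycycline replicate 2, and HOXA9 was at 0 in all 18 culture libraries. In the HOXB cluster the genes with the highest mean levels per length were HOXB7, HOXB9 and HOXB6, which pattern the thoracic axis. HOXB9 had 2, 4 and 1 counts in shAMB with doxycycline and 0, 1 and 0 with DMSO, and 0 in the other 12 culture libraries. HOXB7 reached 2 counts in culture and HOXB6 none.

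In the xenografts most HOXA and HOXB counts sat in 1 library. HOXA genes summed to 1, 8, 2 and 29 counts in control replicates 1 to 4 and to 4, 4, 2 and 6 in the xenografts labelled KO. HOXB genes summed to 0, 1, 0 and 45 counts in the controls and to 12, 1, 9 and 7 in those labelled KO. Control replicate 4 held counts of 17 of the 21 genes, against 1 to 4 in the other controls and 5 to 10 in the xenografts labelled KO. HOXB9 had 0, 0, 0 and 9 counts in the controls and 3, 0, 3 and 4 in those labelled KO. HOXB7 had 0, 0, 0 and 7 in the controls and 4, 0, 2 and 1 in those labelled KO. HOXB6 had 0, 0, 0 and 7 in the controls and 1, 0, 0 and 0 in those labelled KO. Among the controls all counts of these 3 HOXB genes were thus in replicate 4. HOXA13 had 0, 0, 0 and 4 counts in the controls and 0, 1, 1 and 0 in those labelled KO. HOXA7 had 0, 1, 0 and 3 in the controls and 0, 0, 1 and 2 in those labelled KO. HOXA9 had 1, 6, 0 and 0 in the controls and 1, 1, 0 and 1 in those labelled KO, so that its 6 counts were in control replicate 2 and none in replicate 4. The 5 endothelial markers summed to 10.8 CPM in control replicate 4, within the 8.69 to 14.6 CPM of the other controls. VWF made up 9.57 CPM of this sum. It also reached 7.18 CPM in cultured shAMB cells with doxycycline, so the sum does not measure endothelial cells alone. Of the 5 PECAM1 alone was highest among the controls in that library, at 0.318 CPM against 0.0358 to 0.0854 in the others. The highest counts of other genes below the filter over all 26 libraries were 4 for HOXA2 and HOXA4, 2 for HOXA5, 3 for HOXA10, 6 for HOXA11, 1 for HOXB2, 6 for HOXB3, 3 for HOXB4, and 4 for each of HOXB5, HOXB8 and HOXB13.

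**Figure D2:**
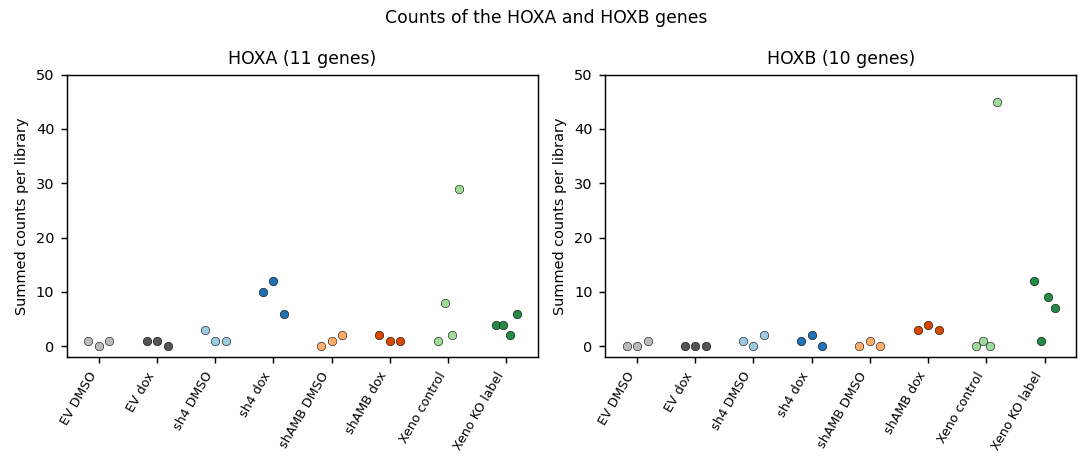
Summed counts of the 11 HOXA genes (left) and the 10 HOXB genes (right) in each library, by group; each point is 1 library. Control xenograft replicate 4, with 29 and 45 counts, lies above all other libraries, and the 3 sh4 doxycycline libraries lead the HOXA counts in culture.

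The 5′ end of the HOXC cluster and HOXD12 were also near 0. HOXC11 reached 2 counts in culture and 6 in control xenograft replicate 4, and HOXD12 reached 2 counts in any library. HOXC13, known for its role in hair and nail, was detected in 25 of 26 libraries with low counts. In EV it had 1, 1 and 1 counts with DMSO and 6, 1 and 2 with doxycycline. In sh4 it had 7, 6 and 3 with DMSO and 9, 6 and 4 with doxycycline. Libraries of shAMB had 4, 1 and 1 with DMSO and 8, 14 and 8 with doxycycline. In the xenografts it had 0, 2, 3 and 5 counts in the controls and 9, 12, 12 and 7 in those labelled KO. The shAMB doxycycline libraries did not overlap with their DMSO libraries, and neither did the xenograft groups. Without the filter, the HOXC13 value was 1.89 in shAMB on the log2 scale (adjusted p = 0.00957, edgeR) and 1.75 in the xenografts (adjusted p = 0.0745).

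Levels of different genes were compared per length, as CPM divided by the deposited gene length in kb. In the EV line with DMSO HOXC4, a cervical and upper thoracic gene, was highest at 25.8 ± 0.778 CPM per kb (mean ± SD, n = 3). HOXD13, the most 5′ HOXD gene, known for limb and genital patterning, followed with 17.4 ± 0.414, and HOXC8, a thoracic gene, with 15.0 ± 0.342. These highest 3 levels did not overlap. HOXC9 at 10.5 ± 0.633, HOXC6 at 8.93 ± 0.957 and HOXD8 at 8.93 ± 0.455 followed, and the libraries of HOXC6 overlapped with those of both others. HOXD9 was at 6.08 ± 0.652, HOXD4 at 4.15 ± 0.241, HOXD3 at 3.16 ± 0.141 and HOXC5 at 1.96 ± 0.554. At the low end were HOXD10 at 1.11 ± 0.173, HOXD11 at 0.873 ± 0.136, HOXD1 at 0.666 ± 0.120 and HOXC10 at 0.0950 ± 0.0331 CPM per kb, and HOXD11 overlapped with both HOXD10 and HOXD1. The posterior gene HOXD13 was therefore high while its neighbours HOXD12, HOXD11 and HOXD10 were low. In the control xenografts HOXD13 was highest at 13.2 ± 0.817 CPM per kb (n = 4), then HOXC4 at 9.62 ± 0.463, HOXD8 at 7.85 ± 0.528 and HOXC9 at 4.89 ± 0.853, with HOXC8 at 4.67 ± 0.342. Culture and xenograft tables are set side by side here and were not tested against each other. Summed over the cluster, HOXC genes reached 62.3 ± 0.948 CPM per kb in EV with DMSO and 23.5 ± 1.70 in the control xenografts, and HOXD genes 42.4 ± 0.633 and 31.1 ± 1.604. With doxycycline the HOXD sum went from 45.6 ± 1.42 to 60.7 ± 1.61 CPM per kb in sh4 and from 48.3 ± 1.38 to 47.9 ± 0.778 in shAMB, and the HOXC sum from 62.7 ± 0.994 to 73.3 ± 1.95 and from 59.4 ± 1.04 to 66.9 ± 2.14.

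Some of these genes share exons. In the annotation (GENCODE v44, GRCh38), 17.5% of the exon bases of HOXC4, 16.1% of those of HOXC6 and 67.3% of those of HOXC5 also belong to another gene on the same strand (HOXC4 and HOXC6 to each other, HOXC6 also to HOXC9, and HOXC4, HOXC5 and HOXC6 to genes annotated by an identifier only), HOXC9 shares 4.38% of its own with HOXC6, and HOXD10 and HOXD11 share 18.2% and 21.4% of theirs. On the opposite strand, the long non-coding RNA HAGLR and a further annotated gene cover 60.1% of HOXD1, and HOXD-AS2 covers 24.4% of HOXD8. Whether counting used the strand is not given in the sources used here, so the division of reads within these pairs is uncertain. HOXC8, HOXD4, HOXD9 and HOXD13 share no exon bases with another gene.

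The HOXD genes that the results below turn on are shown with the 250 bases before their RefSeq start (GRCh38.p14, plus strand), so that the windows of genes that rose together (HOXD1, HOXD4) can be read beside those of genes whose values lay on opposite sides of 0 in the lines (HOXD10, HOXD13 and, unless GC content and length trends are removed, HOXD11). Capitals mark matches to any of 5 motifs searched on both strands: CACGTG (the E-box that MYC-MAX dimers bind), CATCTG (an E-box of neuronal factors), TAATTA (a homeodomain core), TATAAA (a core element of some promoters) and AGGTCA (a nuclear receptor binding element).

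The windows, 5′ to 3′, are as follows.
HOXD13 chr2:176092471-176092720 (+): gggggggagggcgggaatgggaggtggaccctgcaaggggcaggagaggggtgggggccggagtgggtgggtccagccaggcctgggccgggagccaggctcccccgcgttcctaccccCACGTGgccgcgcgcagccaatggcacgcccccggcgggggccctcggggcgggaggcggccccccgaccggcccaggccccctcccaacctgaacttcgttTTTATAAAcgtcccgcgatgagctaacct
HOXD11 chr2:176107030-176107279 (+): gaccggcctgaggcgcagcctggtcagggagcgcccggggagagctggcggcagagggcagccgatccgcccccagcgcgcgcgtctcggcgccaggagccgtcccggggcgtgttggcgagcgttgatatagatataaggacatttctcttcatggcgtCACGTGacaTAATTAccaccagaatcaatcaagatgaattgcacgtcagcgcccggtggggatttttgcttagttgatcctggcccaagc
HOXD10 chr2:176116528-176116777 (+): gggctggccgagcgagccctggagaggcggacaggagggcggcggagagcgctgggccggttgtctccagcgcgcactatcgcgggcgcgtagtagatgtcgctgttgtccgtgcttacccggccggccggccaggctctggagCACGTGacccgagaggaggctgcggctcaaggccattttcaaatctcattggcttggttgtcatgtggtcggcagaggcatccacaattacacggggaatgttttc
HOXD4 chr2:176151300-176151549 (+): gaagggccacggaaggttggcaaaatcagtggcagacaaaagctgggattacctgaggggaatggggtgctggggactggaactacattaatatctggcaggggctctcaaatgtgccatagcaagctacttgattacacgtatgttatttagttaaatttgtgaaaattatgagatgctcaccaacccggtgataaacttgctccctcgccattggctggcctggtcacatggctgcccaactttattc
HOXD1 chr2:176188418-176188667 (+): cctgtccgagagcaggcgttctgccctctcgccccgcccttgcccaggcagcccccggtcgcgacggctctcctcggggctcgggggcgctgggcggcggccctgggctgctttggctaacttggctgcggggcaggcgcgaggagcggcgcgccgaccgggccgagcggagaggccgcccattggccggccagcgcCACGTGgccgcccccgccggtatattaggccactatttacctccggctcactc

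CACGTG was found in the windows of HOXD13, HOXD11, HOXD10 and HOXD1 and in that of HOXD3, which was called in neither line, and not in that of HOXD4, which rose. This makes 5 of the 8 HOXD windows, 1 per gene, against 6.34% of all 35116 windows. CACGTG contains a CpG, and these 5 windows held 21 to 31 CpG sites, against a median of 11 over all windows. The background was not matched for CpG sites, so the comparison does not measure enrichment. The motif was not particular to HOXD. It was found for 8 of the 20 HOX genes with a window, among them HOXA3, HOXA4 and HOXA9, which were below the filter. The matches lie 131, 90, 106, 53 and 47 bases before the start in HOXD13, HOXD11, HOXD10, HOXD1 and HOXD3. TAATTA occurred before HOXD11 and HOXD3 (4.35% of all windows). TATAAA occurred before HOXD13 alone of the HOXD genes, as an overlapping pair of matches on opposite strands (10.7% of all windows). CATCTG (12.2%) and AGGTCA (12.1%) had no match before a HOXD gene. GC content was 74.0% before HOXD13 and 74.8% before HOXD1 but 47.6% before HOXD4, which had 4 CpG sites against 31 before HOXD1; the median of all windows was 58.0% GC and 11 CpG sites. The RefSeq windows of HOXC6, HOXC8, HOXC9, HOXC10 and HOXD9 were not analysed here. The window of HOXD1 overlaps an exon of HAGLR on the other strand, and those of HOXD13 and HOXD3 lie inside the annotated gene, which has a further upstream start. A match describes letters only.

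To see whether the lines differed before induction, the DMSO libraries were compared. HOXD13 was higher in shAMB than in EV, at 52.0, 55.3 and 53.1 CPM against 41.6, 39.9 and 39.9, a log2 fold change of 0.40 ± 0.055 (SE), with an adjusted p of 6.6e-04. It was the only one of the 14 tested HOX genes called between shAMB and EV, where 1.11% of 14905 genes were higher and 0.416% lower. None was called between sh4 and EV (0.597% of all genes higher, 0.523% lower), although DESeq2 called HOXC6. In that comparison 4 of the 14 were at an unadjusted p under 0.05 in the edgeR test, and the share of all genes under that p was not computed. HOXC6 had 22.4, 20.8 and 19.9 CPM in sh4 and 15.2, 15.3 and 18.2 in EV, which do not overlap, with a log2 fold change of 0.38 ± 0.090 (adjusted p = 0.0574). It was called without EV DMSO replicate 3 (0.47, adjusted p = 0.0230) and with GC content and length trends removed (0.24, adjusted p = 0.0119), when HOXC5 was called lower (-0.50, adjusted p = 0.0177).

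Doxycycline itself was tested in the EV line, and no HOX gene was called there, while 0.0134% of all genes were higher and 0.0805% lower. DESeq2 also called none. An unadjusted p under 0.05 in the edgeR test was reached by 4 of the 14. The share of all genes under that p was not computed, so this count cannot be set against it. These 4 were HOXC10, HOXC6, HOXD10 and HOXD11. HOXC10, a lumbar-level gene, had 6, 6 and 9 counts with DMSO and 1, 2 and 2 with doxycycline, which do not overlap. Its log2 fold change was -2.003 ± 0.53 (adjusted p = 0.5), with a 95% interval of -3.13 to -0.87. HOXD10 gave -0.54 ± 0.19 (adjusted p = 0.672) and HOXD11 -0.39 ± 0.18 (adjusted p = 0.672). HOXC6, a trunk gene, gave 0.20 ± 0.090 (adjusted p = 0.672). The first 3 values lay below 0, and none of the 4 passed the threshold. The EV groups also did not overlap for HOXC6 and HOXC8, which were higher with doxycycline, and for HOXD8, HOXD11 and HOXD13, which were lower. The share of all genes without overlap was not computed in any culture line.

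With a hairpin induced, HOX genes moved in both lines. In sh4, 7 of the 14 tested genes rose (HOXC8, HOXC9, HOXC10, HOXD1, HOXD4, HOXD9 and HOXD13) and HOXD10 fell, where 22.9% of all 14905 genes tested rose and 18% fell. In shAMB, 6 rose (HOXC8, HOXC10, HOXD1, HOXD4, HOXD10 and HOXD11) and HOXD13 fell, where 37.6% of all genes rose and 28.4% fell. In shAMB the share of HOX genes that rose was thus close to that of all genes. The median log2 fold change of the 14 was 0.30 in sh4 and 0.12 in shAMB, beside -0.0046 and 0.10 over all genes tested. HOXC8, HOXC10, HOXD1 and HOXD4 rose in both lines. The share of all genes that rose in both was not computed, so this overlap cannot be set against it. The 2 lines share no library. HOXC10 reached the minimum of the filter, 0.244 CPM, in the 6 hairpin doxycycline libraries and in only 1 of the other 12, so it could be tested only because it is high there, and its calls add no support to these counts. Without it 6 of 13 genes rose in sh4 (median 0.25) and 5 of 13 in shAMB (median 0.11). The split of the calls depended on the scaling. In sh4, limma on log2(TPM + 1) called 9 higher and 0 lower. In shAMB, RLE size factors called 6 higher and 2 lower, DESeq2 5 and 2, and removal of GC content and length trends 5 and 4.

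**Figure D3:**
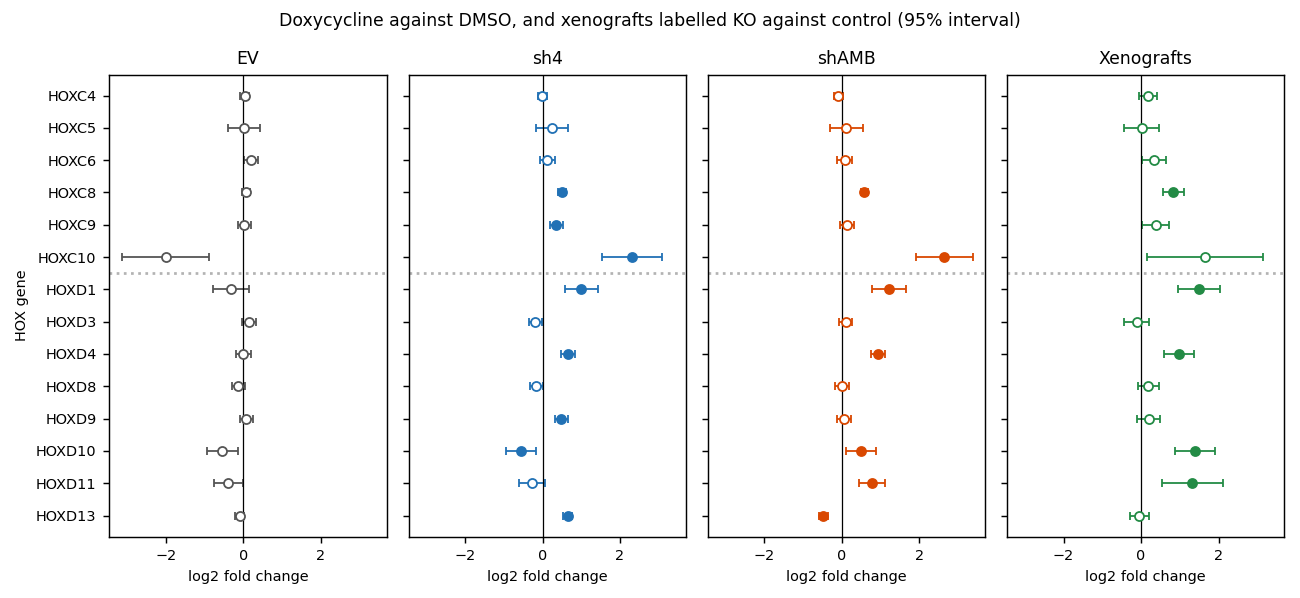
Log2 fold change of the 14 tested HOX genes (rows; HOXC above and HOXD below the dotted line) with its 95% interval, in the EV, sh4 and shAMB lines (doxycycline against DMSO) and in the xenografts (labelled KO against control). Filled points are changed at an adjusted p under 0.05: 8 in sh4, 7 in shAMB, 5 in the xenografts and none in EV.

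HOXC8 rose in both hairpin lines. It had 34.7, 34.6 and 35.9 CPM in sh4 with DMSO and 50.9, 49.7 and 48.4 with doxycycline. Libraries of shAMB had 33.5, 31.7 and 33.6 CPM with DMSO and 49.2, 49.7 and 48.4 with doxycycline. In EV it had 34.7, 34.9 and 33.5 CPM with DMSO and 35.1, 35.8 and 37.5 with doxycycline. These EV groups do not overlap either, with a log2 fold change of 0.07 ± 0.043 (adjusted p = 0.672). Doxycycline libraries of both hairpin lines lay above every other culture library. The log2 fold changes were 0.50 ± 0.043 (SE), with an adjusted p of 1.6e-07, in sh4, and 0.58 ± 0.043 (SE), with an adjusted p of 1.4e-08, in shAMB, or 1.42-fold and 1.49-fold. HOXC10 had the largest fold on the lowest counts. Its counts were 7, 3 and 3 in sh4 with DMSO and 17, 27 and 18 with doxycycline, and 2, 5 and 6 with DMSO and 40, 37 and 26 with doxycycline in shAMB. In CPM, this was 0.135, 0.0590 and 0.0735 with DMSO and 0.402, 0.526 and 0.442 with doxycycline in sh4, and 0.0493, 0.130 and 0.161 with DMSO and 0.896, 0.647 and 0.600 with doxycycline in shAMB. The groups did not overlap in either line. As HOXC10 passed the filter only through the hairpin doxycycline libraries, neither this nor the adjusted p-values that follow add support. The log2 fold changes were 2.31 ± 0.36 (SE), with an adjusted p of 9.9e-05, and 2.64 ± 0.35 (SE), with an adjusted p of 6.9e-06. Even so, HOXC10 stayed under 1 CPM.

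HOXC9, a thoracic gene that is known to slow neuroblastoma growth when forced on, rose in sh4. It had 14.1, 15.5 and 14.9 CPM with DMSO and 21.0, 17.8 and 17.99 with doxycycline, a log2 fold change of 0.35 ± 0.082 (SE), with an adjusted p of 0.00264. In shAMB it had 16.5, 15.9 and 16.1 CPM with DMSO and 18.6, 17.9 and 16.3 with doxycycline, which overlap, and gave 0.13 ± 0.082 (adjusted p = 0.186); in EV it had 15.8, 17.2 and 15.4 with DMSO and 15.4, 15.97 and 17.99 with doxycycline. HOXC4, which was not called, was at 43.99, 43.6 and 41.6 CPM in EV with DMSO and 44.4, 42.0 and 45.6 with doxycycline. It had 41.3, 40.9 and 39.7 with DMSO and 42.8, 39.4 and 39.4 with doxycycline in sh4, and 40.3, 41.7 and 40.2 with DMSO and 40.7, 38.9 and 35.4 with doxycycline in shAMB. The 95% intervals of its log2 fold change were -0.12 to 0.11 in sh4 and -0.21 to 0.03 in shAMB. It was called lower in shAMB with RLE size factors (-0.16, adjusted p = 0.0300) and DESeq2 (-0.16, adjusted p = 0.0249), and higher in sh4 with limma (0.17, adjusted p = 0.0117). Neither HOXC5 (2.03 to 4.00 CPM over the 18 culture libraries) nor HOXC6 (14.1 to 24.8 CPM) was called, with log2 fold changes of 0.25 and 0.13 in sh4 and 0.11 and 0.07 in shAMB. The called HOXC genes, HOXC8, HOXC9 and HOXC10, lie on the 5′ side of HOXC6, HOXC5 and HOXC4. With GC content and length trends removed, HOXC5 turned to -0.40 in shAMB (adjusted p = 0.00804) and was called higher in sh4 (0.52, adjusted p = 7.5e-04), as was HOXC6 (0.22, adjusted p = 0.00172). Limma called HOXC6 higher in sh4 (0.32, adjusted p = 0.00555) and shAMB (0.27, adjusted p = 0.00912), and HOXC9 in shAMB (0.29, adjusted p = 0.00221).

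Of the HOXD genes, HOXD1 and HOXD4, at the 3′ end, rose in both hairpin lines. HOXD1 had 1.25, 1.48 and 1.2 CPM in sh4 with DMSO and 3.14, 2.49 and 2.23 with doxycycline. It had 1.21, 1.53 and 0.856 CPM with DMSO and 2.40, 2.96 and 3.05 with doxycycline in shAMB, and 1.57, 1.11 and 1.27 with DMSO and 1.25, 0.880 and 1.04 with doxycycline in EV. Every hairpin doxycycline library lay above every other culture library, with log2 fold changes of 1.00 ± 0.20 (adjusted p = 8.6e-04) and 1.22 ± 0.20 (adjusted p = 8.5e-05). HOXD4, a hindbrain and cervical gene, had 6.05, 5.74 and 5.71 CPM with DMSO and 9.52, 8.62 and 9.52 with doxycycline in sh4. In shAMB it had 5.30, 4.86 and 4.63 CPM with DMSO and 8.78, 9.60 and 9.85 with doxycycline, and in EV 5.02, 5.58 and 5.54 with DMSO and 5.78, 5.46 and 4.88 with doxycycline. Here too the hairpin doxycycline libraries did not overlap with the rest, with log2 fold changes of 0.66 ± 0.087 (adjusted p = 1.7e-05) and 0.93 ± 0.088 (adjusted p = 1.9e-07). When trends with GC content and length were removed, the shAMB value of HOXD4 was 0.38 (adjusted p = 0.0362) and its sh4 value 1.01.

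HOXD3, which lies between them and takes part in patterning the neck and in cell adhesion, was called in neither line. It ranged from 6.39 to 8.53 CPM in culture and gave -0.18 ± 0.082 (adjusted p = 0.0857) in sh4 and 0.10 ± 0.082 (adjusted p = 0.288) in shAMB. It was called lower in sh4 without sh4 doxycycline replicate 3 (-0.23, adjusted p = 0.0401), and with GC content and length trends removed it was 0.030 in sh4 (adjusted p = 0.861) and -0.38 in shAMB (adjusted p = 0.0141). Limma called it higher in shAMB (0.25, adjusted p = 0.00331). HOXD8, a trunk gene, had 14.0, 14.0 and 15.4 CPM with DMSO and 14.3, 12.8 and 11.6 with doxycycline in sh4. In shAMB it had 15.9, 16.7 and 15.3 with DMSO and 15.2, 17.4 and 15.5 with doxycycline, and in EV 16.4, 15.4 and 14.8 with DMSO and 14.1, 14.0 and 14.7 with doxycycline. Its groups overlapped in both hairpin lines, and its log2 fold changes were -0.16 ± 0.082 (adjusted p = 0.127) and 0.01 ± 0.082 (adjusted p = 0.946), although without sh4 doxycycline replicate 1 it was called lower in sh4 (-0.24, adjusted p = 0.0348). HOXD9 had 11.1, 11.2 and 11.8 CPM in sh4 with DMSO and 15.0, 15.9 and 16.7 with doxycycline, which do not overlap, a log2 fold change of 0.48 ± 0.081 (SE), with an adjusted p of 1.7e-04. In shAMB it had 10.6, 12.2 and 10.8 CPM with DMSO and 11.7, 11.5 and 11.8 with doxycycline and gave 0.06 ± 0.082 (adjusted p = 0.528), and in EV 11.2, 12.8 and 10.4 with DMSO and 12.8, 11.7 and 11.9 with doxycycline. With GC content and length trends removed, its shAMB value was -0.73 (adjusted p = 0.00731), while limma called it higher there (0.23, adjusted p = 0.0149).

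HOXD13 rose in sh4 and fell in shAMB. It had 44.9, 45.9 and 49.4 CPM in sh4 with DMSO and 74.2, 76.6 and 68.5 with doxycycline. In shAMB it had 52.0, 55.3 and 53.1 CPM with DMSO and 40.5, 37.6 and 36.5 with doxycycline, and in EV 41.6, 39.9 and 39.9 with DMSO and 37.5, 37.5 and 39.1 with doxycycline. No library overlapped with the other treatment in sh4, in shAMB or in EV. The log2 fold changes were 0.65 ± 0.054 (adjusted p = 1.3e-07) in sh4, -0.48 ± 0.055 (adjusted p = 1.4e-06) in shAMB and -0.09 ± 0.055 (adjusted p = 0.672) in EV. The shAMB line started from the highest DMSO level, and its doxycycline libraries, at 36.5 to 40.5 CPM, were close to those of the EV line. HOXD10 and HOXD11, posterior genes of the lumbar axis and limb, had values of the opposite sign to HOXD13, although with GC content and length trends removed HOXD11 turned to 0.11 in sh4 (adjusted p = 0.641). HOXD10 had 2.46, 2.36 and 2.33 CPM in sh4 with DMSO and 1.70, 1.42 and 1.77 with doxycycline, and 2.81, 2.03 and 1.90 with DMSO and 3.31, 2.67 and 3.58 with doxycycline in shAMB. Its groups did not overlap in sh4 but did in shAMB. It gave -0.55 ± 0.18 (adjusted p = 0.0251) in sh4 and 0.50 ± 0.18 (adjusted p = 0.0223) in shAMB, and the EV line had 2.15, 1.65 and 2.22 with DMSO and 1.65, 1.06 and 1.43 with doxycycline. Both calls of HOXD10 rested on single libraries. The sh4 call was lost without sh4 DMSO replicate 1 (adjusted p = 0.0606) or 2 (0.0546) or sh4 doxycycline replicate 2 (0.108), and with limma (-0.27, adjusted p = 0.122). The shAMB call was lost without shAMB DMSO replicate 2 (0.0850) or 3 (0.0987) or shAMB doxycycline replicate 1 (0.0576) or 3 (0.0901), and with DESeq2 (0.0648). HOXD11 had 1.602, 1.69 and 1.66 CPM in shAMB with DMSO and 2.69, 3.39 and 2.42 with doxycycline, which do not overlap, a change of 0.78 ± 0.16 (adjusted p = 4.1e-04). In sh4 it had 1.83, 1.71 and 1.81 CPM with DMSO and 1.23, 1.40 and 1.82 with doxycycline and gave -0.27 ± 0.16 (adjusted p = 0.195), a fall that was called without sh4 doxycycline replicate 3 (-0.43, adjusted p = 0.0375), and in EV it had 1.12, 1.21 and 1.499 with DMSO and 1.05, 0.956 and 0.898 with doxycycline. With trends in GC content and length removed, the shAMB value was 0.042 (adjusted p = 0.841).

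**Figure D4:**
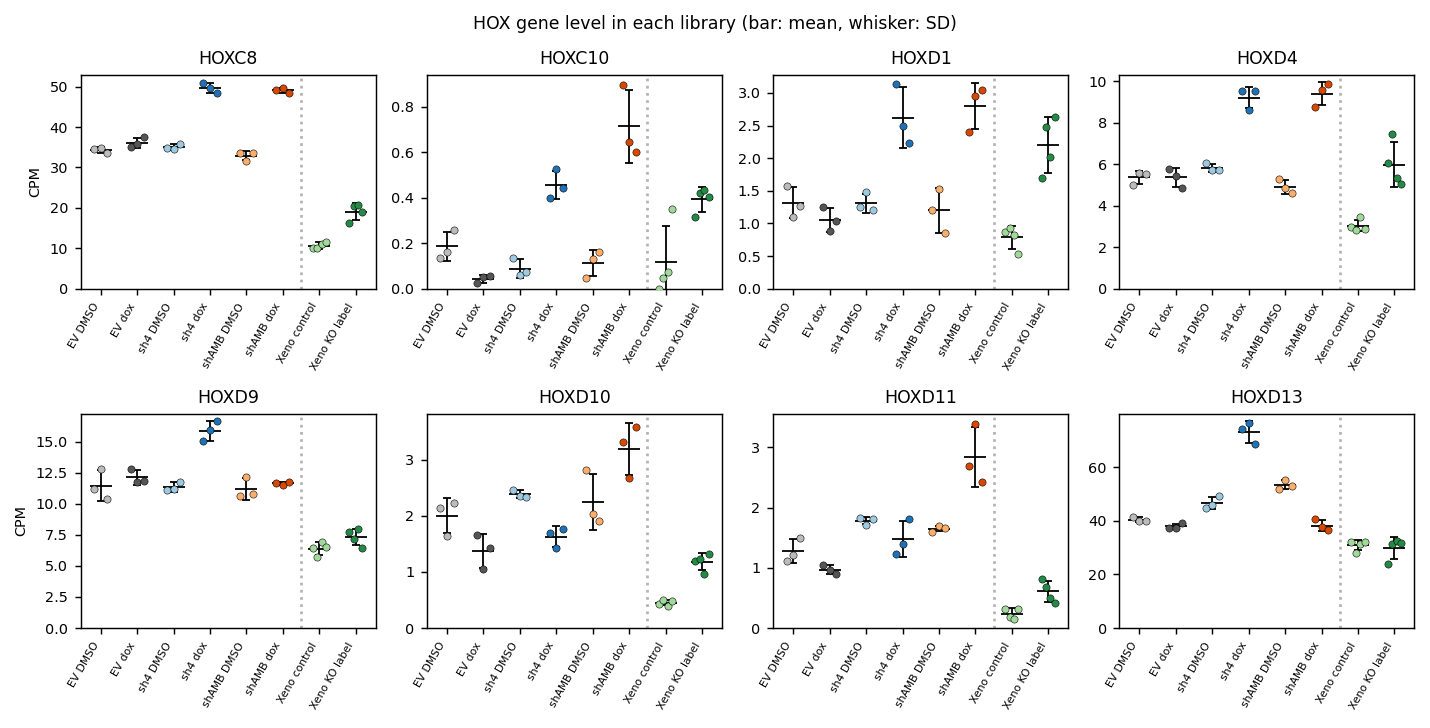
Level in CPM (vertical axes, from 0) of 8 HOX genes in each of the 26 libraries, by group; points are libraries, bars the group mean and whiskers the SD, and the dotted line separates culture from xenografts. HOXC8, HOXD1 and HOXD4 were called higher with doxycycline in both hairpin lines and were not called in EV. HOXD13 was called higher in sh4 and lower in shAMB. In EV, HOXC8 was slightly higher and HOXD13 slightly lower without overlap, and neither was called.

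**Figure D5:**
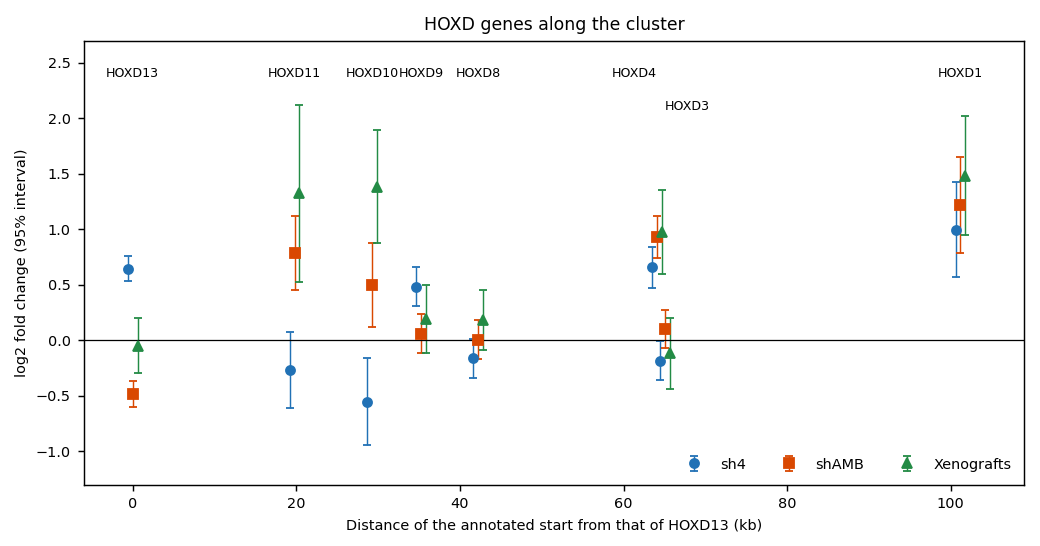
Log2 fold change with its 95% interval of the 8 tested HOXD genes against the distance of their annotated start from that of HOXD13 in kb, for sh4 (circles), shAMB (squares) and xenografts (triangles), drawn slightly apart. HOXD3 lies near 0 between HOXD4 and HOXD1, and sh4 and shAMB lie on opposite sides of 0 at HOXD13, HOXD11 and HOXD10, although with GC content and length trends removed HOXD11 was at 0.11 and 0.042.

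The effect of doxycycline in a hairpin line was then set against that in EV within the same fit. The difference between sh4 and EV was called higher for 7 HOX genes and lower for HOXD3, beside 17.8% and 14.7% of all genes. That between shAMB and EV was called higher for 6 and lower for HOXD13, beside 23.7% and 21.7%. Both counts include HOXC10, which could be tested only because it is high with a hairpin induced and adds no support here. Without it 6 of 13 genes were called higher for sh4 minus EV and 5 of 13 for shAMB minus EV. For sh4 minus EV, DESeq2 and limma each called 7 higher and 0 lower, and removal of GC content and length trends 9 and 0. For shAMB minus EV, limma called 8 higher and 0 lower, HOXC9 (0.31, adjusted p = 0.0204) and HOXD8 (0.32, adjusted p = 0.0434) among them. HOXC8 differed from EV by 0.43 ± 0.061 (adjusted p = 7.2e-05) in sh4 and 0.50 ± 0.061 (adjusted p = 7.0e-06) in shAMB, HOXD1 by 1.32 ± 0.30 (adjusted p = 0.00328) and 1.54 ± 0.30 (adjusted p = 6.2e-04), and HOXD4 by 0.66 ± 0.12 (adjusted p = 8.5e-04) and 0.93 ± 0.13 (adjusted p = 2.0e-05). The HOXC10 differences, 4.31 and 4.64, include the value of -2.003 in EV, which stood on 1 to 2 counts per doxycycline library. HOXD13 differed from EV by 0.74 ± 0.077 (adjusted p = 3.7e-06) in sh4 and -0.39 ± 0.078 (adjusted p = 6.4e-04) in shAMB, and HOXD9 by 0.40 ± 0.12 (adjusted p = 0.0142) in sh4. With limma the shAMB difference of HOXD13 was -0.17 (adjusted p = 0.0816). For HOXD10 the sh4 effect was not called against EV, with a difference of -0.01 and an interval of -0.59 to 0.56, whereas the shAMB effect differed by 1.04 ± 0.26 (adjusted p = 0.00446). HOXD11 likewise gave 0.12 in sh4 (interval -0.38 to 0.63) and 1.18 ± 0.24 (adjusted p = 7.7e-04) in shAMB. With GC content and length trends removed, sh4 minus EV was called higher for HOXD11 (0.78, adjusted p = 0.0345) and HOXC5 (0.70, adjusted p = 0.00187).

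Between the hairpin lines, sh4 minus shAMB was called higher for HOXD9 and HOXD13 and lower for HOXD3, HOXD10 and HOXD11, beside 27.8% and 33.1% of all genes. With GC content and length trends removed, 6 were called higher (HOXC5, HOXC6, HOXC9, HOXD4, HOXD9 and HOXD13) and HOXD10 lower. DESeq2 called 3 higher and 2 lower, and limma 2 and 4. The difference was 1.13 ± 0.077 (adjusted p = 9.6e-09) for HOXD13, -1.05 ± 0.26 (adjusted p = 0.00254) for HOXD10, -1.05 ± 0.22 (adjusted p = 9.1e-04) for HOXD11 and 0.42 ± 0.12 (adjusted p = 0.00513) for HOXD9. With trends in GC content and length removed, the HOXD11 difference was 0.066 (adjusted p = 0.834), and that of HOXD4 turned from -0.27 to 0.63 (adjusted p = 0.0168). The genes that rose in both lines were not called between them: the intervals of the difference were -0.20 to 0.05 for HOXC8, -1.54 to 0.88 for HOXC10, -0.83 to 0.39 for HOXD1 and -0.53 to -0.01 for HOXD4. With limma HOXC10 was called lower in sh4 than in shAMB (-0.24, adjusted p = 0.0353). HOXD4 was called without replicate 1 of shAMB with DMSO (adjusted p = 0.0444) or doxycycline (0.0451). The calls nearest the threshold were those of HOXC9, with 0.33 ± 0.12 (adjusted p = 0.0427) for sh4 minus EV, and HOXD3, with -0.33 ± 0.12 (adjusted p = 0.0421) for sh4 minus EV and -0.28 ± 0.12 (adjusted p = 0.0436) for sh4 minus shAMB. The HOXC9 call was lost without the filter on low counts (adjusted p = 0.102), with the replicate number as a block (0.0609), and without EV DMSO replicate 1 or 2, EV doxycycline replicate 1 or 2, sh4 DMSO replicate 1 or 3, or sh4 doxycycline replicate 1 (adjusted p of 0.0588 to 0.132). Between sh4 and shAMB, HOXC9 was called without sh4 doxycycline replicate 3 (adjusted p = 0.0419) and with DESeq2 (0.0494). The HOXD3 call against EV was lost without EV DMSO replicate 1 or 2, EV doxycycline replicate 2 or 3, sh4 DMSO replicate 1 or 2, or sh4 doxycycline replicate 1 or 2 (0.0525 to 0.117), without the filter (0.0627), with DESeq2 (0.0651) and with limma (-0.093, adjusted p = 0.440). The one against shAMB was lost without replicate 1 or 2 of sh4 or shAMB with DMSO, replicate 1 or 2 of sh4 with doxycycline, or any shAMB doxycycline replicate (0.0547 to 0.127), with RLE size factors (0.108), without the filter (0.112) and with DESeq2 (0.151). With GC content and length trends removed, these HOXD3 differences turned to 0.097 (adjusted p = 0.694) and 0.41 (0.0579).

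In the tumours the same question was asked of xenografts labelled KO against controls. Of the 14 tested genes, 5 rose (HOXC8, HOXD1, HOXD4, HOXD10 and HOXD11) and none fell, where 21.2% of 15960 genes rose and 19.9% fell. The median log2 fold change of the 14 was 0.35, beside 0.019 over all genes tested. All 5 had also risen in shAMB, while HOXD13 was not called in the tumours. The share of all genes that rose in both was not computed, so this count cannot be set against it. In shAMB the call of HOXD10 was lost with DESeq2 (adjusted p = 0.0648). That of HOXD11 was lost with GC content and length trends removed (adjusted p = 0.841, edgeR). In the xenografts the groups of each of the 5 did not overlap, and neither did those of HOXC6, which was not called. The share of all genes without overlap was not computed. HOXC8 had 10.2, 9.96, 10.98 and 11.7 CPM in the controls and 16.2, 20.5, 20.6 and 19.0 in those labelled KO, a log2 fold change of 0.84 ± 0.12 (SE), with an adjusted p of 3.6e-04. HOXD1 had 0.875, 0.926, 0.824 and 0.535 CPM in the controls and 1.69, 2.48, 2.02 and 2.63 in those labelled KO, a log2 fold change of 1.49 ± 0.25 (SE), with an adjusted p of 7.9e-04. HOXD4 had 2.99, 2.85, 3.44 and 2.88 CPM in the controls and 6.07, 7.47, 5.34 and 5.04 in those labelled KO, a log2 fold change of 0.98 ± 0.17 (SE), with an adjusted p of 0.00119. For each of these 3 genes every library labelled KO lay above every control. HOXD10 had 0.427, 0.497, 0.394 and 0.485 CPM in the controls and 1.203, 1.23, 0.965 and 1.33 in those labelled KO, or 2.61-fold, a log2 fold change of 1.39 ± 0.23 (SE), with an adjusted p of 8.6e-04. HOXD11 had 0.320, 0.181, 0.143 and 0.318 CPM in the controls and 0.819, 0.686, 0.498 and 0.423 in those labelled KO, a log2 fold change of 1.32 ± 0.36 (SE), with an adjusted p of 0.0133, on 8 to 47 counts per library. Of the controls only 2 reached the minimum of the filter, 0.185 CPM, for HOXD11, and only 1 for HOXC10, so both were tested because they are high in the libraries labelled KO. The call of HOXD11 thus adds no support to the count of 5, and neither gene adds any to the median of 0.35. Without HOXC10 the median was 0.33, and 5 of 13 genes rose, HOXD11 still among them. HOXC8, HOXD1, HOXD4 and HOXD10 reached that minimum in all 8 libraries. Without control replicate 4 the log2 fold changes were 0.87 for HOXC8, 1.33 for HOXD1, 0.94 for HOXD4, 1.42 for HOXD10 and 1.49 for HOXD11, with adjusted p-values of 0.00146 to 0.0192.

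HOXC10 depended on that library. Its counts were 0, 2, 4 and 21 in the controls and 18, 24, 28 and 21 in those labelled KO, or 0, 0.0452, 0.0717 and 0.351 CPM in the controls and 0.314, 0.422, 0.436 and 0.404 in those labelled KO. The log2 fold change was 1.64 ± 0.68 (adjusted p = 0.0762) with all 8 libraries and 3.21 ± 0.60 (adjusted p = 0.00305) without control replicate 4, in which HOXA and HOXB counts were also raised. The part of that library's added transcripts in its HOXC10 counts was not tested. As HOXC10 was tested only because it is high in the libraries labelled KO, its p-values add no support. HOXC4 had 16.8, 15.9, 15.0 and 16.4 CPM in the controls and 16.2, 17.99, 18.6 and 19.4 in those labelled KO, a log2 fold change of 0.17 ± 0.10 (adjusted p = 0.218). HOXC9 had 7.77, 5.76, 7.70 and 8.93 CPM in the controls and 8.28, 10.5, 10.1 and 10.2 in those labelled KO, a log2 fold change of 0.37 ± 0.16 (adjusted p = 0.0867), and was called without replicate 1 of the xenografts labelled KO (0.44, adjusted p = 0.0458). HOXC6 ranged from 5.32 to 6.42 CPM in the controls and from 6.52 to 7.73 in those labelled KO, which do not overlap, and gave 0.33 ± 0.14 (adjusted p = 0.0811). These 3 HOXC genes had log2 fold changes above 0 and did not pass the threshold. With GC content and length trends removed they did, at 0.28, 0.50 and 0.43 (adjusted p = 0.0167, 0.0377 and 0.0147), as did HOXC10 at 1.74 (0.0390). HOXD13 had 32.1, 28.1, 31.2 and 32.0 CPM in the controls and 23.9, 31.3, 32.3 and 31.9 in those labelled KO, with a 95% interval of -0.30 to 0.20. HOXD8 had 15.0, 12.8, 13.3 and 13.5 CPM in the controls and 13.1, 16.7, 15.2 and 17.3 in those labelled KO, a log2 fold change of 0.19 ± 0.12 (adjusted p = 0.254). HOXD9 had 6.45, 5.69, 6.91 and 6.54 CPM in the controls and 7.72, 7.14, 7.94 and 6.46 in those labelled KO, a log2 fold change of 0.19 ± 0.14 (adjusted p = 0.289). The groups overlapped for all 3, and likewise for HOXC5 (0.02) and HOXD3 (-0.12).

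Of 21 listed non-coding RNAs of the clusters 16 are in the tables and 3 were tested. HAGLR, transcribed from the opposite strand between HOXD1 and HOXD3, was the most abundant, at 35.1, 36.9 and 37.0 CPM in sh4 with DMSO and 20.2, 19.9 and 19.2 with doxycycline. Libraries of shAMB had 38.96, 38.2 and 38.6 CPM with DMSO and 27.4, 25.6 and 24.6 with doxycycline, and in EV 36.3, 36.3 and 37.2 with DMSO and 38.0, 37.1 and 38.2 with doxycycline. It fell in both hairpin lines without overlap, by a log2 fold of 0.88 in sh4 (adjusted p = 1.0e-09) and by 0.58 in shAMB (adjusted p = 4.0e-08), while HOXD1, whose exons it covers from the other strand, rose. In the xenografts it had 21.3, 17.5, 17.5 and 18.8 CPM in the controls and 14.2, 15.2, 14.6 and 15.0 in those labelled KO, a log2 fold change of -0.35 ± 0.11 (SE), with an adjusted p of 0.0233. HOXD-AS2, antisense to HOXD8, had 2.58, 2.30 and 2.13 CPM with DMSO and 1.61, 1.71 and 1.35 with doxycycline in sh4, and 2.22, 2.29 and 2.78 with DMSO and 3.69, 3.83 and 3.07 with doxycycline in shAMB. It fell in sh4 with -0.58 ± 0.15 (adjusted p = 0.00603) and rose in shAMB with 0.54 ± 0.15 (adjusted p = 0.00418), and gave 0.08 ± 0.21 (adjusted p = 0.78) in the xenografts. HOXC-AS1, at under 1 CPM, rose in shAMB with 1.84 ± 0.53 (adjusted p = 0.00604), and sh4 minus shAMB was -2.15 ± 0.70 (adjusted p = 0.0149). HOTAIR, a HOXC antisense RNA known from metastatic cancers, had at most 4 counts in any library, and HOTTIP of the HOXA cluster at most 0.167 CPM.

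Genes that work with or upstream of the HOX genes are given by list, beside the median of -0.0046, 0.10 and 0.019 over all genes tested in sh4, shAMB and the xenografts and the shares of calls above. In EV no gene of these lists was called. All 9 TALE cofactors were tested: 4 rose and 3 fell in sh4 (median log2 fold change 0.17), 5 rose and 3 fell in shAMB (median log2 fold change 0.16) and 2 rose and 0 fell in the xenografts (median log2 fold change 0.18). MEIS3 gave -0.93 (sh4), 1.44 (shAMB) and 0.18 (xenografts), PBX4 -1.14 (sh4), 1.06 (shAMB) and 0.89 (xenografts), PBX2 0.24 (sh4), 0.62 (shAMB) and 0.46 (xenografts) and PKNOX2 0.39 (sh4), 0.75 (shAMB) and 0.24 (xenografts). Of these values those of PKNOX2 in sh4, and of MEIS3, PBX4 and PKNOX2 in the xenografts, were not called. Of 18 genes of retinoid signalling 13 were tested: 6 rose and 1 fell in sh4 (median log2 fold change 0.36), 6 rose and 2 fell in shAMB (median log2 fold change 0.22) and 6 rose and 1 fell in the xenografts (median log2 fold change 0.10). CRABP2, which carries retinoic acid to its nuclear receptors, gave 2.12 (sh4), 2.56 (shAMB) and 2.01 (xenografts), and CYP26B1, which degrades retinoic acid, 0.83 (sh4), 2.04 (shAMB) and 1.76 (xenografts), all called. CRABP2 went from 10.6 ± 0.223 CPM to 45.9 ± 6.47 in sh4, from 8.30 ± 1.56 to 48.8 ± 0.188 in shAMB and from 9.69 ± 2.88 to 39.2 ± 5.02 in the xenografts. CRABP1, a cytosolic binding protein, gave 0.16 (sh4), 1.66 (shAMB) and 0.71 (xenografts), and STRA6, a receptor for retinol uptake, -0.02 (sh4), 1.24 (shAMB) and -0.16 (xenografts). CRABP1 was called in shAMB and the xenografts, and STRA6 in shAMB.

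All 23 chromatin regulators of the clusters were tested: 4 rose and 0 fell in sh4 (median log2 fold change 0.01), 8 rose and 2 fell in shAMB (median log2 fold change 0.12) and 5 rose and 6 fell in the xenografts (median -0.00232). CBX7, a chromodomain subunit of Polycomb repressive complex 1, rose in all 3 with 1.10 (sh4), 1.99 (shAMB) and 1.14 (xenografts). JARID2, which helps recruit Polycomb repressive complex 2, gave -0.07 (sh4), 1.35 (shAMB) and 0.85 (xenografts) and was called in shAMB and the xenografts. KMT2B, a histone methyltransferase of the trithorax group, gave -0.34 (sh4), 0.96 (shAMB) and -0.01 (xenografts), called in shAMB. ASH2L, a subunit shared by the trithorax-group complexes, gave 0.08 (sh4), -0.96 (shAMB) and -0.56 (xenografts) and was called lower in shAMB and the xenografts. Of 22 genes next to the clusters 13 were tested in each table: 4 rose and 4 fell in sh4 (median log2 fold change -0.08), 2 rose and 9 fell in shAMB (median log2 fold change -0.37) and 2 rose and 6 fell in the xenografts (median log2 fold change -0.20). SNX10, beside HOXA, gave 1.53 in shAMB on the log2 scale and was not tested in the xenografts. HIBADH, also beside HOXA, gave -0.33 (sh4), -0.92 (shAMB) and -0.92 (xenografts), KIAA1715, beside HOXD, -0.17 (sh4), -0.90 (shAMB) and -0.72 (xenografts), and CBX1, beside HOXB, 0.35 (sh4), -0.89 (shAMB) and -0.66 (xenografts). Of these, KIAA1715 in sh4 was not called, and neither was SNX10 in sh4 (0.84). The 8 related homeobox regulators (CDX, GSX, PDX1 and MEOX genes) were all below the filter in both tables.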

How the data were processed

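RNA-seq was read from 18 KELLY culture libraries and 8 xenograft libraries. The authors had processed the reads with, per the labels, STAR, SAMtools and RSEM on hg38 (versions not given for these libraries in the sources used here; the methods give versions for mouse ganglia) and deposited estimated counts and TPM per gene. Estimated counts were rounded to whole numbers, filtered with filterByExpr, scaled by TMM and tested in 1 fit per table with the quasi-likelihood F test of edgeR 4.0.16 in R 4.3.3. P-values were adjusted by Benjamini-Hochberg over all 14905 culture or 15960 xenograft genes tested, with a threshold of 0.05. Total counts of 35115915 to 62378060 per library limit the precision of genes with few counts. Alternatives were RLE size factors, no filter, DESeq2 1.42.0, limma 3.58.1 on log2(TPM + 1) in culture, the replicate number as a block, each library left out, and, added after the data were seen, removal of GC content and length trends. The fit was tested on simulated data.

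The members and lists were chosen with earlier results of these data known. Values in every library are given for the 3 genes of each cluster with the highest mean level per length and for up to 6 called genes with the largest log2 fold changes in each doxycycline comparison and in the xenografts. In each list up to 4 genes are named by the largest called change in shAMB, then in the xenografts. Values of 1 member are not reported here.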

Additional observations from a re-analysis of the deposited data

Results flagged for a closer look

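Dixon's criterion for a single sample far from the others was applied to 34 sets of 4 values, each set being 1 quantity in 1 xenograft group. In these, 5 values stood out, and chance flags about 1 in 20 sets. The sets come from the same libraries and are not independent trials. In control replicate 4 these were HOXC6 at 6.42 CPM (the other controls 5.32 to 5.49), the summed HOXB counts at 45 and the number of genes with a count at 20997. In replicate 1 of the xenografts labelled KO they were HOXC9 at 8.28 CPM (nearest library 10.1) and HOXD13 at 23.9 CPM (nearest library 31.3).

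The effect of doxycycline (log2 fold change) differed between lines by the test of the difference itself for the following genes. For sh4 minus EV the differences were 4.31 for HOXC10, 0.43 for HOXC8, 0.33 for HOXC9, 1.32 for HOXD1, 0.74 for HOXD13, -0.33 for HOXD3, 0.66 for HOXD4 and 0.40 for HOXD9. For shAMB minus EV they were 4.64 for HOXC10, 0.50 for HOXC8, 1.54 for HOXD1, 1.04 for HOXD10, 1.18 for HOXD11, -0.39 for HOXD13 and 0.93 for HOXD4. For sh4 minus shAMB they were -1.05 for HOXD10, -1.05 for HOXD11, 1.13 for HOXD13, -0.28 for HOXD3 and 0.42 for HOXD9. HOXC10 could be tested only because it is high with a hairpin induced, so its differences add no support.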

How the results depend on the processing

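The number of changed HOX genes stayed within 1.5 times the value reported except as follows. Limma on log2(TPM + 1) called 11 in shAMB (10 higher, 1 lower) in place of 7; on that scale the median of all genes was 0.12 in sh4 and 0.21 in shAMB. Between sh4 and EV with DMSO, DESeq2 called 1 gene and removal of GC content and length trends, chosen after seeing the data, 2, in place of 0. That removal called 9 in the xenografts in place of 5. It covered 91.1% of the culture and 89.9% of the xenograft genes tested. With 1 library left out, counts ranged from 0 to 0 in EV, 7 to 10 in sh4, 6 to 7 in shAMB, 6 to 8 for sh4 minus EV, 7 to 7 for shAMB minus EV, 4 to 6 for sh4 minus shAMB, 0 to 1 for sh4 against EV with DMSO, 1 to 1 for shAMB against EV with DMSO and 5 to 6 in the xenografts. Among results called under either setting, directions turned for HOXC4 in sh4 with limma (0.17) and, with GC content and length trends removed, for HOXC5 (-0.40), HOXD3 (-0.38) and HOXD9 (-0.73) in shAMB, for HOXD3 in sh4 minus EV (0.097), and for HOXD3 (0.41), HOXD4 (0.63) and HOXD11 (0.066) in sh4 minus shAMB. Of the values for doxycycline that were called under neither setting, that removal also turned HOXD3 (0.030) and HOXD11 (0.11) in sh4 and HOXC9 (-0.14) and HOXD8 (-0.16) in shAMB; sign changes of other uncalled values close to 0 are not listed. The cause was not tested. Deviations of same-numbered libraries had correlations of -0.603 to 0.374 over 19 pairs, of which 3 were above 0.1. With 3 or 4 libraries per group this check cannot exclude that the numbers pair some of them. With the replicate number as a block, the HOXC9 difference between sh4 and EV was 0.32 (adjusted p = 0.0609, edgeR), counts were 7 in place of 8 there, and no other HOX call changed. The low counts of HOXC10, HOXC13, HOXA and HOXB genes limit what the depth can show.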
